A study of Homo sapiens and Mus musculus with 30 samples.

Results

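NIH3T3, a mouse embryonic fibroblast line, was compared at its higher and lower levels of LIN28B in total RNA. The comparison set the libraries of levels X3 and X4, called the high set here, against those of X1 and X2, the low set, which makes 4 of the 30 libraries of the series. The series as a whole covers this line and the human kidney line HEK293A at 5 graded levels of LIN28B (X0 to X4), with total RNA and ribosome-bound (polysome) RNA from every level and small RNA from HEK293A. All NIH3T3 cells grew in DMEM with 10% FBS, and the labels give doxycycline at 10 ng/ml as the inducer of the LIN28B transgenes. They do not say from which species the NIH3T3 transgene comes, how many clones stand behind a level or what promoter drives it beyond the inducer. X0, which the design text describes as the knockout although no NIH3T3 label says so, is left out of both sets. The design text mentions 2 replicates of each condition, but every level has a single column here, with no word on pooling. The spread within a set is therefore the spread between a pair of neighbouring levels, and p-values measure only that spread, which may be technical.

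LIN28B is an RNA-binding protein of embryonic and tumour cells. It binds the precursors of let-7 microRNAs and keeps them from maturing, and it also binds many messenger RNAs directly. Mature let-7 lowers messenger RNAs that carry sites matching its seed, among them Hmga2, the Igf2bp genes, Myc, Nras and several collagens. Fibroblasts make and remodel the extracellular matrix, and contractile (myofibroblast) forms of them add smooth muscle actin. The seed, bases 2 to 8 counted from the 5′ end and set in capitals, is what ties let-7 family members to a common set of targets, so 3 members are printed to show it. Sequences and positions are human entries of RefSeq on GRCh38.p14, and mouse sequences were not used here.
hsa-let-7a-5p: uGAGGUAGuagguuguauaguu
hsa-let-7b-5p: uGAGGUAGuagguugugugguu
hsa-let-7i-5p: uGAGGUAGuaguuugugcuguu
The printed stretch of let-7a lies in MIRLET7A1 at chr9:94175962-94175983, that of let-7b in MIRLET7B at chr22:46113691-46113712 and that of let-7i in MIRLET7I at chr12:62603691-62603712, all on the plus strand. The 3 share their seed and differ in the bases after it.

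The 4 libraries held 16072237 to 21984375 reads, recovered from the deposited RPKM, which are reads scaled to gene length and library depth. Both high libraries were deeper, with 19982655 reads in X3 and 21984375 in X4, against 17374316 in X1 and 16072237 in X2. Depth thus ran with the sets, and its part in the results was not tested. Of the 41128 genes of the table, 10225 had a mean of at least 1 RPKM over the 4 libraries and were tested. Fibroblast markers were present, with 12 of 16 averaging over 1 RPKM, and their RPKM summed to 8174 and 8672 in the low set and 7864 and 7605 in the high set, with Fap at 0. None of 13 epithelial or 9 endothelial markers reached that mean, with Epcam and Kdr at 0. For immune markers 1 of 9 reached it, Cd68, while Ptprc was at 0, and for skeletal muscle 3 of 12, with Myod1 and Myog at 0. For adipocyte markers 2 of 10 reached it, Retn and Lpl, and for cartilage and bone 3 of 12, Sox9, Runx2 and Spp1. The cartilage and bone markers summed to 155 and 147 RPKM in the low set and 173 and 133 in the high set. The mouse gene Lin28b had 1 read in each of X0, X1 and X2, then 9 in X3 and 42 in X4, all far under the filter. Only X3 and X4 thus stood apart in the order of the labels, and X0, X1 and X2 were tied. Lin28a, the paralog, had 3 reads in both low libraries, 0 in X3 and 1 in X4.

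Genes of the matrix, of the contractile cytoskeleton and of amino acid synthesis stood higher in the high set, and no gene passed the test. In limma on log2(RPKM + 0.5), with Benjamini-Hochberg adjustment over 10225 genes, 0.0% were called higher and 0.0% lower, and the smallest adjusted p was 0.210. At an unadjusted p under 0.05 there were 899 genes higher and 453 lower, or 663 and 681 once each library was centred on its trimmed mean. In 2971 genes (29.1%) both high libraries lay above both low ones, and in 1819 genes (17.8%) both lay below. Such genes are called higher and lower here, and these shares are the background for each list. Where 4 RPKM values follow a gene without more, they are those of X1, X2, X3 and X4 in that order. Voom, limma's method for reads, weights each value by the spread expected at its number of reads. It called 97 genes (0.949%) higher and 19 (0.186%) lower at an adjusted p under 0.05. All 116 had sets that did not overlap, but both come from the same 4 libraries, so that is no further support. The median log2 difference over all tested genes was 0.04. Over all genes, libraries of a set differed about as much as libraries of different sets: the SD over genes of the log2 difference was 0.31 between X1 and X2 and 0.25 between X3 and X4, against 0.26 to 0.37 for the 4 pairs across the sets. In bulk RNA, a change in the mix of cells and a change of RNA within each cell cannot be told apart.

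The 15 genes of smallest p in the higher direction, at a mean of at least 5 RPKM, included several secreted matrix proteins. Thbs1 encodes thrombospondin 1, a matrix glycoprotein that can activate latent TGF-beta, and had 20.1 and 21.8 RPKM in the low set and 42.8 and 48.8 in the high set. All 5 total RNA libraries kept the order of the LIN28B levels for it, from 12.6 RPKM at X0, and the sets stood 2.16-fold apart (log2 difference 1.11, SE 0.10, limma adjusted p = 0.210, voom adjusted p = 0.000607). Fibronectin (Fn1), the glycoprotein that links cells to collagen, had 26.0, 27.9, 46.9 and 52.97 RPKM, with a log2 difference of 0.88 (SE 0.10). Its sets did not overlap, but X0 at 74.8 RPKM lay above all 4. Nid2, nidogen 2 of basement membranes, had 11.7 and 14.96 RPKM in the high set against 4.96 and 6.37 in the low set, 2.24-fold higher. The matrix genes Col1a1 (type I collagen alpha chain, 279, 261, 394 and 448 RPKM from X1 to X4), Fbln2 (fibulin 2, 48.1 and 52.5 RPKM in the low set and 72.8 and 81.6 in the high set) and Efemp1 (fibulin 3, 37.7, 36.1, 54.9 and 54.8 RPKM) were 1.48 to 1.56 times higher. Adamts1, a protease that cleaves large proteoglycans, had 9.98 and 12.4 RPKM in the high set against 5.81 and 5.61 in the low set. In all of these, X3 and X4 were both above X1 and X2.

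Enzymes were also among the 15. Aldh18a1, the first enzyme of proline synthesis from glutamate, had 16.1, 17.7, 26.4 and 29.5 RPKM from X1 to X4, and Phgdh, the first enzyme of serine synthesis, had 57.8 and 57.4 RPKM in the low set and 81.5 and 89.4 in the high set. Gars, which charges glycine onto its tRNA, had 41.9, 42.7, 60.3 and 66.9 RPKM. Myh9, the heavy chain of non-muscle myosin, had 34.7 and 40.7 RPKM in the high set against 21.9 and 23.4 in the low set, and App, the amyloid precursor protein, had 12.7, 12.3, 19.3 and 20.3 RPKM from X1 to X4. The kinase gene Plk2, the secreted protease inhibitor gene Fetub and the annexin gene Anxa3 had log2 differences of 0.60, 0.72 and 0.72. Over the 15 genes the log2 differences ran from 0.56 to 1.17 with limma adjusted p of 0.210 to 0.214, and voom called all 15. They were chosen for small p in the same 4 libraries, so neither the voom calls nor the lack of overlap between their sets is further support.

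**Figure D1:**
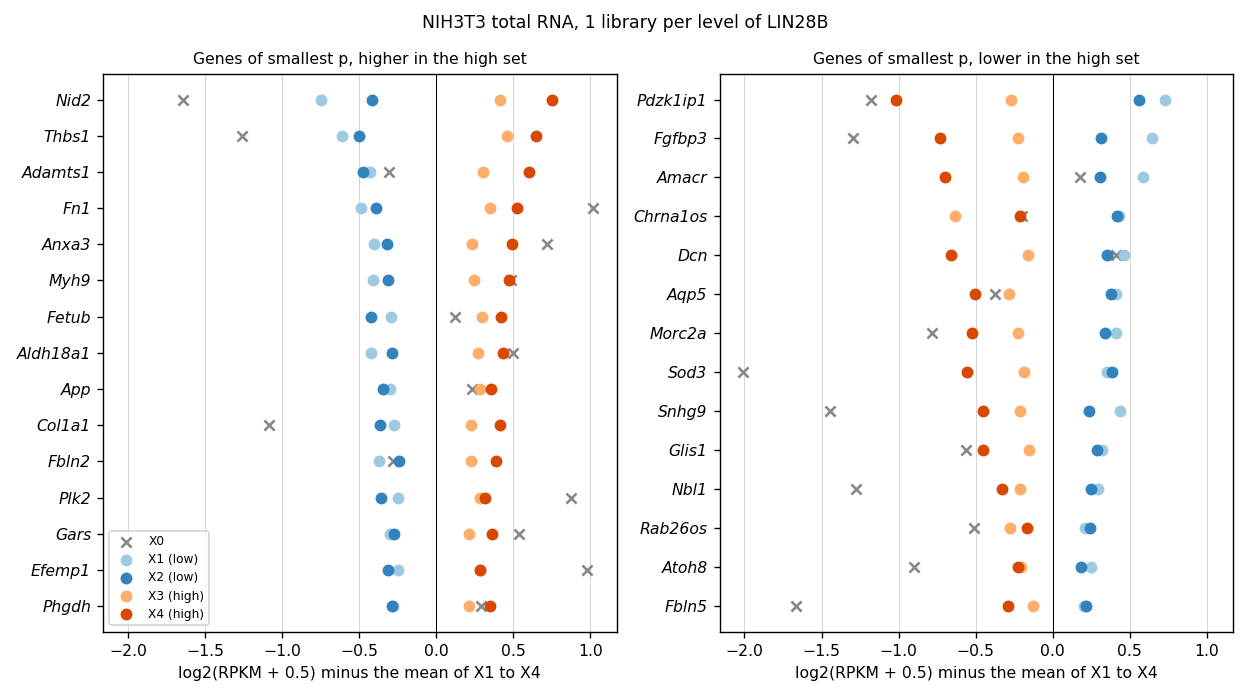
Each row is a gene and each point 1 total RNA library, placed by its log2(RPKM + 0.5) minus the mean of X1 to X4; crosses are X0, which entered no test. In all 29 rows the points of X3 and X4 lie on the other side of 0 from those of X1 and X2, while X0 falls on either side.

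The 15 genes of smallest p in the lower direction were of mixed function. Pdzk1ip1, a small membrane protein, had 29.1 and 25.9 RPKM in the low set and 14.4 and 8.34 in the high set, which is 2.44 times higher in the low set (log2 difference -1.29, SE 0.23, limma adjusted p = 0.239, voom adjusted p = 0.0128). Sod3, the extracellular superoxide dismutase, had 93.8, 95.9, 64.4 and 49.7 RPKM. Both low libraries of each gene were above both high ones, and X0 stood below all 4 for both, at 7.40 RPKM for Pdzk1ip1 and 17.8 for Sod3. Among matrix genes, Dcn (decorin, a small proteoglycan that binds collagen fibrils) had 15.4 and 10.7 RPKM in the high set against 24.0 and 22.2 in the low set and Fbln5 (fibulin 5, an elastic fibre protein) had 164, 166, 130.0 and 116 RPKM from X1 to X4. Nbl1, a secreted inhibitor of BMP signalling, had 169 and 164 RPKM in the low set and 119 and 109.8 in the high set, and Fgfbp3, which binds fibroblast growth factors, had 7.92, 6.18, 4.09 and 2.75 RPKM. The water channel gene Aqp5 had 12.2 and 10.4 RPKM in the high set against 19.99 and 19.6 in the low set.

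The lower 15 also held transcription factors and noncoding transcripts. Glis1, a zinc finger transcription factor, had 13.7, 13.3, 9.71 and 7.77 RPKM from X1 to X4, and Atoh8, a basic helix-loop-helix factor, had 23.4 and 22.4 RPKM in the low set and 16.9 and 16.7 in the high set. Amacr, needed to break down branched fatty acids, had 31.4, 25.8, 18.1 and 12.6 RPKM. Morc2a, a chromatin ATPase, had 31.0 and 25.1 RPKM in the high set against 48.4 and 46.0 in the low set, and reads shared with related genes cannot be set apart for it. Snhg9, a short host transcript of a small nucleolar RNA, and the opposite-strand transcripts Chrna1os and Rab26os had log2 differences of -0.67, -0.85 and -0.45. That of Snhg9 rests on few reads, 35, 28, 25 and 23 from X1 to X4. For the opposite-strand transcripts reads of the gene on the other strand cannot be told apart, since no source names the strand setting of the counting. Over the 15 the differences ran from 0.42 to 1.29 log2 units below the low set, limma adjusted p was 0.210 to 0.259, and voom called 10. These genes too were chosen for small p in the libraries that voom used, so its calls are no further support.

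**Figure D2:**
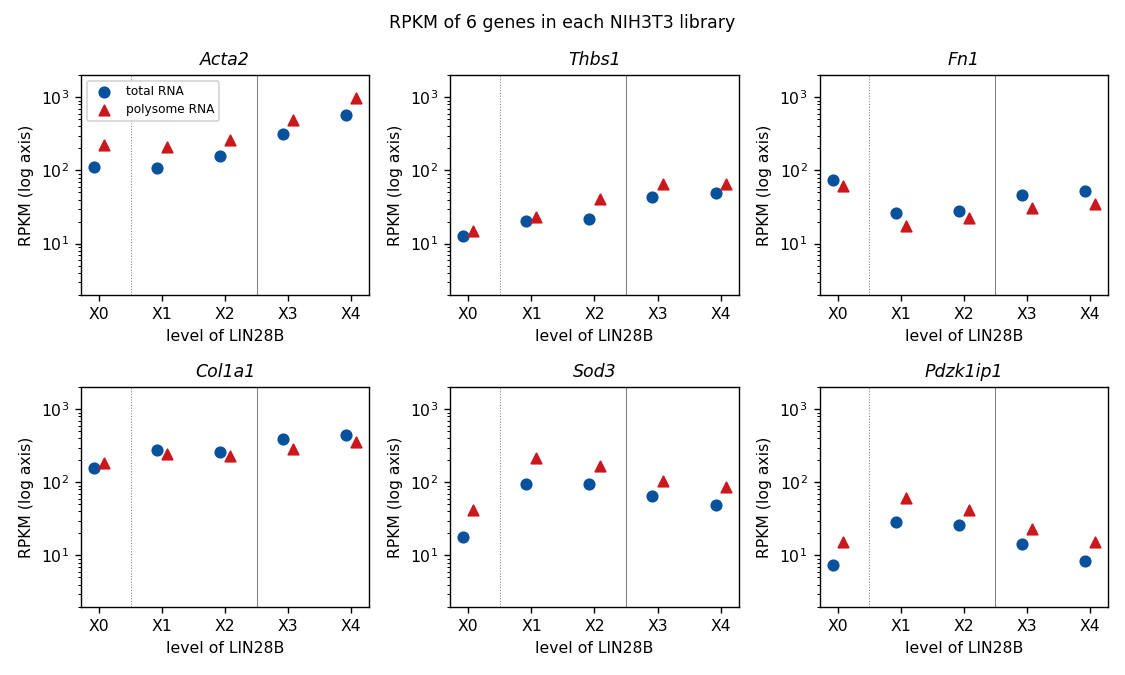
RPKM of 6 genes on a log axis at each LIN28B level, with total RNA as circles and polysome RNA as triangles; the dotted line sets X0 apart and the solid line divides the low from the high set. Acta2 reaches 576 RPKM in total RNA at X4 from 107 at X1, and Sod3 and Pdzk1ip1 are lower at X3 and X4 than at X1 and X2 in both fractions.

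Structural matrix genes were the list with most voom calls. Of 60 collagens and glycoproteins 42 were tested, 30 of them higher (71.4%, against the background of 29.1%) and 7 lower, with a median log2 difference of 0.31. Limma called none, and voom called 16 higher and 2 lower. The list's genes are long, with a median of 6086 bases. Of all tested genes of 5191 to 26094 bases 40.3% were higher and 9.2% lower. After a correction for gene length the list's median difference was 0.18. Fibrillar collagens other than Col1a1 included Col1a2 with 189, 171, 251 and 269 RPKM from X1 to X4 and Col5a2 with 9.28 and 9.24 RPKM in the low set and 13.3 and 12.6 in the high set. Chosen after their values were seen, Col5a1 had 24.9, 24.8, 36.7 and 48.0 RPKM, Col5a3 had 1.73 and 2.19 RPKM in the high set against 0.871 and 0.786 in the low set and Col3a1 had 43.9, 43.8, 55.0 and 51.0 RPKM from X1 to X4. Type V collagen sets the width of type I fibrils. All of its 3 chains named here were higher, but they were chosen by their values or small p. Fbn1, fibrillin 1 of elastic microfibrils and likewise chosen by its values, had 1.26 and 1.36 RPKM in the low set and 2.34 and 3.15 in the high set. The 7 lower members included Dcn, Fbln5 and Tgfbi, a TGF-beta-induced matrix protein singled out for its values. Tgfbi had 3.29, 3.28, 2.19 and 0.153 RPKM, so that X4 alone stood far below the rest, and X0 had 52.0 RPKM. The library medians of the list, relative to each gene's mean over the 4, were -0.14 and -0.18 in the low set and 0.14 and 0.19 in the high set.

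Genes that process or crosslink the matrix went with the structural ones. Of 29 tested (39 in the list) 21 were higher (72.4%) and 1, Ctsk, was lower, the median difference was 0.21 and voom called 3 higher. Adamts2, which trims procollagen, had 15.1 and 18.3 RPKM in the high set against 10.9 and 11.9 in the low set. P4ha2, a subunit of the prolyl hydroxylase that stabilises collagen, had 4.79, 4.62, 6.82 and 7.38 RPKM from X1 to X4. Serpinh1, the collagen chaperone, chosen after its values were seen, had 317 and 329 RPKM in the low set and 380.4 and 471 in the high set, with X4 the highest. None of these sets overlapped.

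Acta2 had the widest difference of the contractile genes. It encodes smooth muscle alpha-actin, the actin of myofibroblasts, and had 107, 158, 315 and 576 RPKM (log2 difference 1.71, SE 0.30, limma adjusted p = 0.232, voom adjusted p = 0.0128). X0 at 112 RPKM lay between the pair of low libraries, and each step from X1 to X4 was upward. Of 31 contractile genes and targets of the transcription factor SRF that were tested (41 in the list), 25 were higher (80.6%) and 1 lower, with a median log2 difference of 0.34. Voom called 6 higher. Flna, the actin crosslinker filamin A, had 46.1 and 55.3 RPKM in the high set against 30.7 and 32.3 in the low set, and Vcl, the focal adhesion protein vinculin, had 7.75, 6.03, 10.2 and 10.8 RPKM from X1 to X4. Myl9 (myosin light chain, 11.1 and 19.01 RPKM in the low set and 26.1 and 37.0 in the high set), Tagln (transgelin, 36.1, 51.1, 58.0 and 84.0 RPKM) and Actb (cytoplasmic beta-actin, 1140.3 and 1322 RPKM in the high set against 1007 and 912 in the low set), chosen after their values were seen, had the same order of sets. The lower member was Csrp2, with 239.6, 267, 235 and 186 RPKM from X1 to X4. The 12 skeletal muscle markers summed to 4.87 and 6.07 RPKM in the low set and 5.79 and 5.51 in the high set, with 7 of them, Myod1 and Myog included, at 0 in all 4 libraries.

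**Figure D3:**
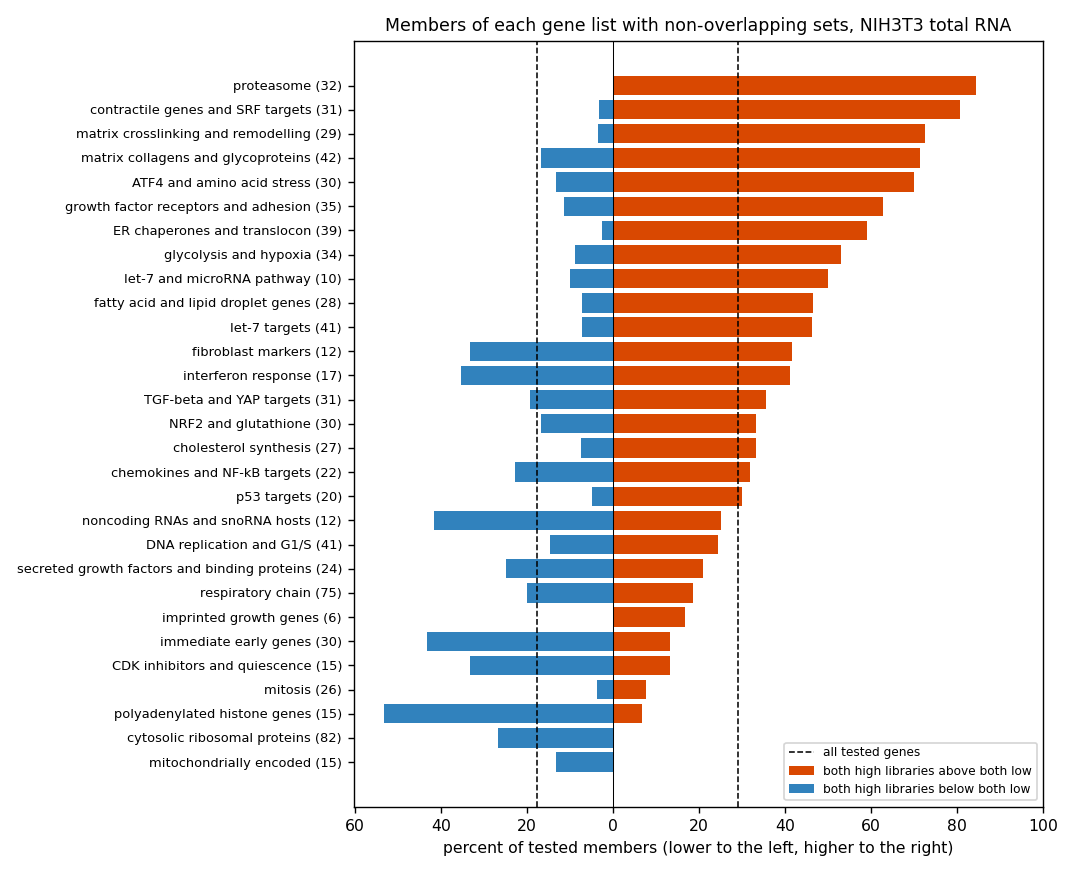
Bars give, for each gene list (tested members in parentheses), the percent of members whose high libraries both lay above (right) or below (left) both low libraries; dashed lines are the same shares over all 10225 tested genes, 29.1% and 17.8%. Proteasome, contractile and both matrix lists reach 71.4% to 84.4% on the right, and the histone list reaches 53.3% on the left.

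Genes of amino acid supply were higher more often than all genes. In the list of ATF4 targets and amino acid stress genes (ATF4 is the transcription factor that switches on amino acid synthesis and transport when supply is short), 21 of 30 tested members were higher (70.0%), 4 were lower and the median difference was 0.26. Voom called 8 higher. Asns, which makes asparagine, had 35.5 and 39.1 RPKM in the low set and 55.3 and 64.8 in the high set (limma adjusted p = 0.214, voom adjusted p = 0.0157). Trib3, a pseudokinase induced by ATF4, had 8.80, 8.31, 12.97 and 13.8 RPKM. Chosen by their values, Shmt2 (mitochondrial serine to glycine conversion) had 47.0 and 54.4 RPKM in the high set against 34.7 and 32.1 in the low set, Slc7a5 (a carrier of large neutral amino acids) had 20.02, 21.7, 27.5 and 36.8 RPKM from X1 to X4 and Cth (cystathionine lyase) had 1.35 and 1.48 RPKM in the low set and 2.54 and 2.79 in the high set. Atf4 itself had 346, 370.2, 342 and 343 RPKM, with a log2 difference of -0.06 (SE 0.08). Cebpb, a partner of ATF4 in binding DNA, was among the 4 lower members, with 168 and 150.2 RPKM in the high set against 228 and 193 in the low set. The list's X0 median was 0.21 above the mean of the 4, higher than X4 at 0.18.

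Chaperones and the translocon of the endoplasmic reticulum showed a smaller shift. Of 39 tested members (41 in the list) 23 were higher (59.0%) and 1 lower, the median difference was 0.14, and voom called 3 higher. These 3 were Hspa5, the main chaperone of the compartment, with 14.5, 13.5, 20.03 and 23.7 RPKM from X1 to X4, Hsp90b1, its HSP90, with 9.49 and 8.24 RPKM in the low set and 12.6 and 14.7 in the high set, and Hyou1, a large HSP70-like chaperone, with 8.90, 9.80, 12.8 and 14.6 RPKM. Pdia4, a disulfide isomerase, had 53.1 and 57.5 RPKM in the high set against 46.1 and 41.0 in the low set. Leaving out 1 library at a time, the list's median ran from 0.09 (without X2 or X4) to 0.22 (without X1).

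Glycolysis genes were higher more often than all genes, and X0 stood higher still. Of 34 tested glycolysis and hypoxia genes (40 in the list) 18 were higher (52.9%) and 3 lower, with a median difference of 0.21, and voom called 2. Pfkl, a phosphofructokinase, had 16.4, 17.3, 24.6 and 25.6 RPKM from X1 to X4 (limma adjusted p = 0.221, voom adjusted p = 0.0186). Ldha, which turns pyruvate into lactate, had 149 and 147 RPKM in the low set and 186 and 198 in the high set, and Aldoa, aldolase A, had 270.3, 285, 346 and 351 RPKM. At X0 they had 43.5, 232 and 654 RPKM, above all 4 compared libraries, and with X0 counted in the low set the list's median was -0.03.

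Of all lists the proteasome had the largest share of higher members, with small differences. All 32 members were tested, 27 were higher (84.4%) and none lower, the median difference was 0.23, and neither limma nor voom called any. Psmc2, an ATPase of the regulatory cap, had 22.2 and 26.3 RPKM in the high set against 17.8 and 17.4 in the low set, Psmd12, a lid subunit, had 8.23, 7.47, 9.97 and 11.1 RPKM from X1 to X4, and Psma4, of the core ring, had 31.1 and 28.3 RPKM in the low set and 34.6 and 40.2 in the high set. X4 was the highest in each. The list's library medians were -0.11 in both low libraries, 0.01 in X3 and 0.22 in X4, and in polysome RNA its median difference was -0.02. The list median was 0.12 without X4 and 0.34 without X3.

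Listed let-7 targets were higher somewhat more often than all genes. Of 71 listed targets 41 were tested, 19 were higher (46.3%) and 3 lower, and the median log2 difference was 0.20. Voom called 4 higher, which are Thbs1, Col1a1, Col1a2 and Col5a2 and so also stand in the matrix list. Outside both matrix lists 35 targets were tested, 14 of them higher (40.0%) and 3 lower, with a median of 0.19 (0.32 without X1, 0.07 without X2) and no voom call. The median length was 4514 bases for the whole target list and 4344 bases for these 35. Of all tested genes of 3505 to 5190 bases 36.2% were higher and 13.3% lower, so the share of the 35 lies near that of genes of like length. Hmga2, a chromatin protein and the best known target, had 5.201, 3.77, 5.48 and 7.96 RPKM (log2 difference 0.53, SE 0.21, limma adjusted p = 0.370). Its sets did not overlap, but X1 and X3 differed by little, and the log2 difference was 0.28 without X4 and 0.78 without X3. Igf2bp1, Igf2bp2 and Igf2bp3, which bind messenger RNAs of growth genes, had log2 differences of 0.29, 0.31 and 0.23, with overlapping sets for Igf2bp3. That of Igf2bp1 was 0.09 without X4 and 0.49 without X3. Nras, a small GTPase of growth signalling, had 10.1 and 10.6 RPKM in the high set against 8.34 and 7.46 in the low set. Hmga1 lay in the other direction, with 423, 385, 366 and 322 RPKM from X1 to X4. Myc, Ccnd1 and Ccnb1 had overlapping sets, with log2 differences of 0.21 (SE 0.13), -0.03 (SE 0.16) and 0.11 (SE 0.18). Cdk4 had 199.6 and 203 RPKM in the low set and 205 and 211 in the high set, a difference of 0.05. Without X1, the target list's median was 0.33, and without X2 it was 0.09.

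Genes that make or use microRNAs gave small differences. Of 26 listed, 10 were tested, 5 higher and 1 lower, with a median of 0.10 that was 0.01 without X2 and 0.22 without X1. Xpo5, the exporter of microRNA precursors, had 6.25, 6.09, 6.83 and 7.97 RPKM, and Drosha, the nuclear nuclease, had 11.3 and 11.2 RPKM in the high set against 10.4 and 9.54 in the low set. The lower member was the feature Mirlet7b, which had 3 and 2 reads in the low set and 1 and 0 in the high set. Libraries selected for polyA do not measure mature microRNAs, and so few reads allow no statement on let-7b. Dicer1 (0.80 and 0.68 RPKM in the low set, 0.97 and 1.08 in the high set) and Igf2 (0.51, 0.34, 0.41 and 0.22 RPKM from X1 to X4) were under the filter and not tested.

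**Figure D4:**
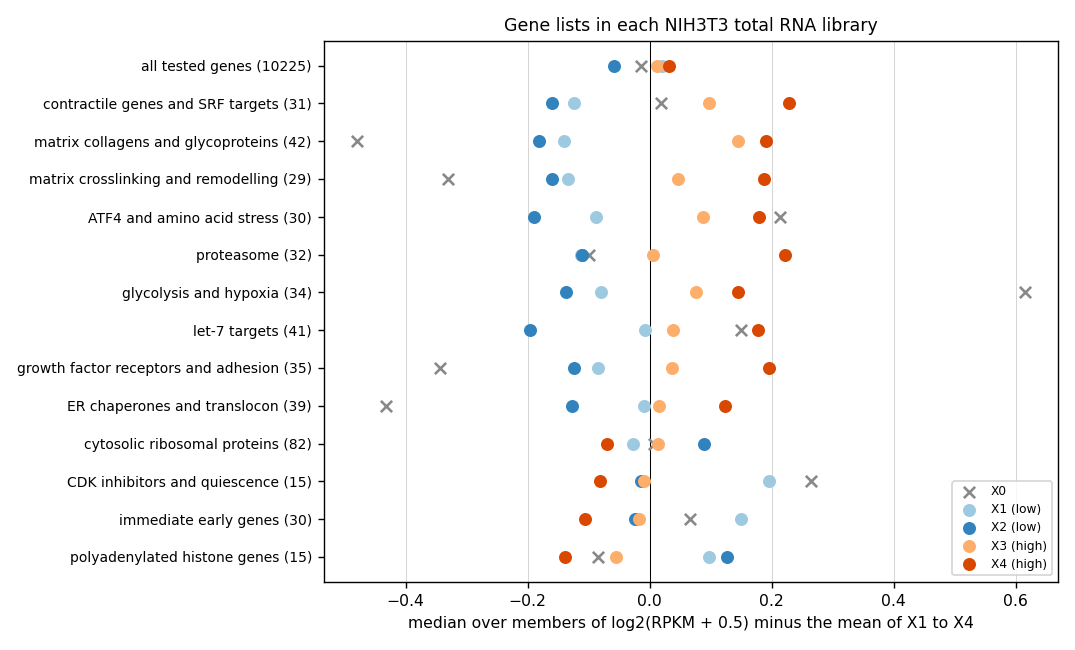
Points give the median over a list's tested members of log2(RPKM + 0.5) minus each gene's mean over X1 to X4, for each total RNA library; crosses are X0. For the contractile and both matrix lists X3 and X4 lie above 0 and X1 and X2 below, whereas for the cell-cycle inhibitor and immediate early lists X2 and X3 nearly coincide.

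Receptors and adhesion proteins were higher more often than all genes. Of 35 tested (58 in the list) 22 were higher (62.9%) and 4 lower, with a median of 0.20. Integrin subunits, which anchor cells to fibronectin and other matrix proteins, were among them: Itgb1 had 11.1, 9.39, 13.8 and 16.7 RPKM from X1 to X4, Itga5, its partner in the fibronectin receptor, had 41.8 and 45.0 RPKM in the low set and 53.5 and 62.1 in the high set, and Itgb3 had 4.23, 4.64, 6.02 and 7.03 RPKM. Ncam1, a neural cell adhesion molecule, had 8.75 and 12.1 RPKM in the high set against 6.44 and 5.97 in the low set. The PDGF receptors, which drive fibroblast growth, had log2 differences of 0.35 for Pdgfra and 0.26 for Pdgfrb, with 0.18 without X4 and 0.52 without X3 for Pdgfra. Thy1, a surface protein used as a fibroblast marker, was one of the 4 lower members, with 227, 207, 186 and 165 RPKM from X1 to X4.

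Targets of TGF-beta and of YAP, which respond to matrix and tension, were mixed. Of 31 tested members 11 were higher (35.5%) and 6 lower, with a median of 0.11, which is -0.0006 without X2. Cyr61 and Amotl2, both YAP targets, were the 2 voom calls. Cyr61 had 29.3 and 32.9 RPKM in the low set and 41.1 and 47.3 in the high set, and Amotl2 had 26.7, 23.5, 32.8 and 38.9 RPKM. F3, tissue factor, had 12.8 and 14.5 RPKM in the high set against 9.45 and 7.79 in the low set. Secreted growth factors and their binding proteins had 5 of 24 higher and 6 lower. Ptn, pleiotrophin, had 5.24, 4.71, 8.22 and 12.99 RPKM from X1 to X4, while Igfbp4, which holds back insulin-like growth factors, had 1176 and 1121 RPKM in the low set and 884 and 658 in the high set and was called lower by voom (adjusted p = 0.0376). Stc1 and Igfbp7 had log2 differences of -0.85 and -0.33.

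Immediate early genes, which serum and growth factors switch on within minutes, were lower more often than all genes. Of 30 tested members 13 were lower (43.3%, against 17.8%) and 4 higher, with a median of -0.16, which was -0.07 without X4 and -0.22 without X2. Nr4a2, an orphan nuclear receptor, had 6.99, 5.23, 4.08 and 2.499 RPKM, Ier2 had 38.4 and 33.3 RPKM in the high set against 45.8 and 46.5 in the low set, Klf2 had 19.4, 17.1, 15.3 and 13.2 RPKM from X1 to X4 and Jund had 91.4 and 92.6 RPKM in the low set and 79.6 and 75.7 in the high set. Cell-cycle inhibitors and quiescence genes had 5 of 15 lower (33.3%) and 2 higher, with a median of -0.14. Among them Cdkn2c, an inhibitor of CDK4 and CDK6, had 87.8, 81.9, 72.9 and 68.7 RPKM, and Gas1, named for growth arrest, had 187 and 181 RPKM in the high set against 248 and 203 in the low set. Without X1 this list's median was -0.01 and without X2 it was -0.26, and neither limma nor voom called a member of either list.

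The lists of cytosolic ribosomal protein genes and of polyadenylated histone genes had medians below that of all genes. All 82 cytosolic ribosomal protein genes were tested, none was higher and 22 were lower (26.8%), with a median of -0.06, which was -0.12 without X1 and -0.002 without X2. Their median length was 1439 bases. Of all tested genes of 1112 to 2325 bases 23.7% were lower, near the share of this list, and 23.4% were higher. After a correction for gene length the list's median was -0.04. Rpl24 had the smallest p of them, with 39.2, 38.1, 33.9 and 27.9 RPKM from X1 to X4. Polyadenylated histone genes had 8 of 15 lower (53.3%) and 1 higher, with a median of -0.20. The linker histone gene Hist1h1c had 15.01 and 12.0 RPKM in the low set and 8.85 and 6.73 in the high set, and H3f3b, a replication-independent H3, had 238, 211, 187 and 158 RPKM. Near-identical copies exist for many ribosomal protein and histone genes, so that reads may be split among them. Mitochondrially encoded genes had a median of -0.35, but their spread within the sets (SD 0.38) was as wide, and the median was -0.01 without X1 and -0.60 without X2. In polysome RNA the median of 14 such genes was 0.49, in the other direction. The metal-binding gene Mt1 had 384 and 325 RPKM in the high set against 505 and 479 in the low set, and Mt2, a second metallothionein gene, had 210.3, 185, 154 and 105 RPKM from X1 to X4. Mitosis genes (2 of 26 higher, 1 lower) and replication genes (10 of 41 higher, 6 lower) had medians of 0.05 and 0.04, close to that of all genes. Both changed sign without X2, to -0.13 and -0.009.

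Polysome libraries of the same 4 levels gave a second reading that had no part in choosing the genes. Limma called 0.0% of 11122 genes in polysome RNA, with 377 higher and 199 lower at an unadjusted p under 0.05, and the sets did not overlap in 18.3% (higher) and 16.8% (lower) of genes. All 15 genes of smallest p in the higher direction were also higher in polysome RNA. In the lower direction 11 of 15 were also lower there, and 14 had a negative difference, Snhg9 being under the polysome filter. Of the 116 genes called by voom in total RNA, 91 of 97 were higher and 15 of 19 lower in polysome RNA. Acta2 had 207 and 265 polysome RPKM in the low set and 495 and 976 in the high set, and Thbs1 had 23.1, 40.5, 66.0 and 65.8 polysome RPKM. Sod3 had 103 and 86.4 polysome RPKM in the high set against 214 and 166 in the low set. Col1a1, with 246, 229, 288 and 357 polysome RPKM from X1 to X4, had a smaller difference in polysome RNA (0.44) than in total RNA (0.64), a gap that was not tested. Hmga2 had 5.63 and 9.32 polysome RPKM in the low set and 15.9 and 14.4 in the high set. Total and polysome RNA of a level come from cells of that level, so both readings share what sets one level's cells apart.

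**Figure D5:**
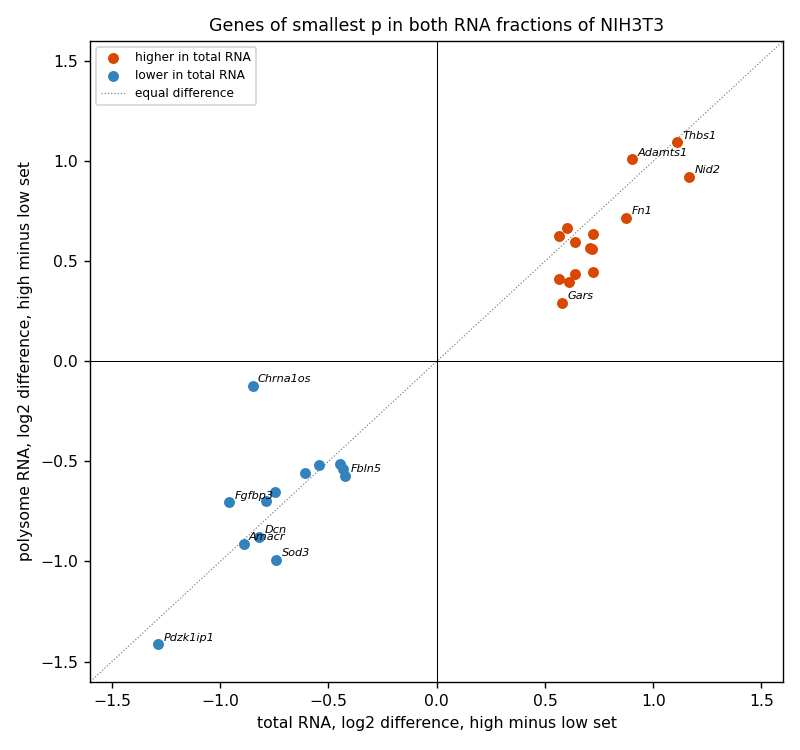
Each point is 1 of 28 genes of smallest p, with its log2 difference between high and low sets in total RNA (horizontal) and polysome RNA (vertical); the dotted line marks equal differences, and genes over 0.8 in size in total RNA and 3 others are named. Orange points all lie above 0 and blue points below it on both axes, with Chrna1os near 0 in polysome RNA.

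With all 4 levels and every shared gene that passed the filter in both lines, limma called no difference between HEK293A and NIH3T3. The levels of both lines share their names, and the sources do not state that they hold equal LIN28B. The 6690 gene symbols used occur once in each line and average at least 1 RPKM in both. Over them limma's interaction of line with set called 0.0%. At an unadjusted p under 0.05 there were 635 genes of larger and 163 of smaller difference in NIH3T3. The median difference over these genes was 0.06 in NIH3T3 and -0.01 in HEK293A. Of the 15 genes of smallest p in the higher direction 11 were among the 6690, and 7 had a positive difference in HEK293A, from -0.13 to 0.36 over the 11. Asns differed by -0.26 in HEK293A and 0.68 in NIH3T3 (interaction adjusted p in limma = 0.0756), and Acta2 by 0.44 and 1.71 (adjusted p = 0.210 in limma). At a mean of 5 RPKM or more the interaction called 3 genes, all of larger difference in NIH3T3, and it called 30 without X1, 46 without X2 and 0 without X3 or X4.

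X0 and gene length moved with these results, and their part in them was not tested. The X0 library differed from X1 to X4 by SDs of 0.53 to 0.61 over genes, wider than any pair among the 4. It lay nearer the high set in 10 of the 15 higher and 13 of the 15 lower genes of smallest p. The share over all tested genes was not counted, so these counts cannot be read as particular to those genes. Over all tested genes X0 also differed less from the high set, with SDs of 0.53 against both X3 and X4, 0.57 against X1 and 0.61 against X2. For the structural matrix list X0's median was -0.48, below both low libraries. Longer genes stood higher in the high set: over 5 equal bins of genes by length, the median log2 difference was -0.07, -0.001, 0.04, 0.07 and 0.10 from the shortest to the longest. In the shortest bin (36 to 1111 bases) 14.1% of genes were higher, against 40.3% in the longest (5191 to 26094 bases). The median length of the 116 genes called by voom was 4828 bases, against 2892 over all tested genes. After a correction of each library for length, the medians were 0.18 for the structural matrix list, 0.27 for contractile genes, 0.19 for ATF4 and amino acid genes, 0.20 for the proteasome and 0.13 for let-7 targets, and Acta2 and Thbs1 had differences of 1.71 and 1.01.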

How the data were processed

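RPKM were deposited by the authors, 1 column per level and fraction, for polyA-selected RNA taken up in Trizol. The builds mm10 and hg19 and the tools STAR and cutadapt are named in the submitters' processing notes, without their roles, and the mouse table names genes by symbol only, 75 of which occur more than once. The counter, its strand setting and the annotation were not found in the labels or headers. Low RPKM fall on whole-number steps, from which reads and gene lengths were recovered for all 21042 genes above 0 (tolerance 0.02 reads). Where the steps did not settle a length, the smallest one giving whole reads was taken. Such lengths and reads are not verified. Genes averaging 1 RPKM or more over X1 to X4 were fitted with limma 3.58.1 (R 4.3.3) on log2(RPKM + 0.5), a scale that understates the change of low genes, with a variance trend and a Benjamini-Hochberg threshold of 0.05. The line difference used an interaction term over shared symbols that occur once in each line and average 1 RPKM or more in both. The limma, voom and length-corrected fits of high against low were tested on simulated reads. Simulated libraries of a set were replicates, unlike the real ones, and the line difference was not simulated.

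Named genes are the 15 of smallest p in each direction at a mean of at least 5 RPKM (none passed the threshold, and predicted genes, clone names and pseudogenes were left out), as many as 4 members per list by smallest p, and a fixed set of LIN28, let-7 and fibroblast genes. Others are marked as chosen by their values, and some genes these rules pick are not reported here. Members and the 35 lists were chosen with earlier results of these data known, and lists carry counts and medians but no test. Alternatives were other pseudocounts (0.1 and 1), filters (5 RPKM, none), scalings, voom, 1 prior variance, a straight line over level rank, X0 in the low set, each library left out and, added after seeing the data, a correction for gene length, the count of genes whose sets do not overlap and the let-7 targets outside the matrix lists.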

Additional observations from a re-analysis of the deposited data

How the results depend on the processing

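No paired analysis was possible because each level has 1 library and the labels give no replicate numbers. Limma's count of 0 called genes in total RNA was also 0 with pseudocounts of 0.1 and 1, a mean of 5 RPKM or no filter, centring, quantile normalization, 1 prior variance, a length correction or X0 in the low set. It was 19 with a straight line over the level rank, 116 with voom, and 4790 genes had sets that did not overlap. Leaving out 1 library gave 0 (without X4) to 75 (without X2). A set left with 1 library is then assumed to vary like the other. In polysome RNA the count of 0 became 1 after centring and 4 (without X4) to 211 (without X2) when 1 library was left out. The line difference of 0 became 3 at a mean of 5 RPKM and 0 to 46 (without X2) when 1 level was left out. The cause was not tested in any of these cases.

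Of 116 tested genes named in the text, 106 kept their direction under all alternatives and 112 under all but X0 in the low set. With X0 in the low set the log2 difference was 0.052 for Sod3, 0.20 for Fbln5, 0.035 for Klf2, -0.086 for Aldoa, 0.012 for Igfbp7 and -0.049 for Ccng1, and the list median was -0.053 for the microRNA pathway, -0.0012 for TGF-beta and YAP targets and -0.030 for glycolysis. Cdk4 was at -0.012 after the length correction. Leaving out 1 library moved the difference of 29 of the 116 genes by over 1.5 times in at least 1 case, and it ran from -0.0055 to 0.46 for Igf2bp3, -0.14 to 0.35 for Ccnb1 and -0.24 to 0.19 for Ccnd1. List medians ran from -0.00061 to 0.18 for TGF-beta and YAP targets, -0.019 to 0.14 for fatty acid genes and -0.11 to 0.12 for fibroblast markers, but from 0.27 to 0.37 for the structural matrix, 0.25 to 0.39 for contractile genes and 0.21 to 0.32 for ATF4 and amino acid genes. Depth limits features of few reads, such as Mirlet7b with 0 to 3 reads a library. Over X1 to X4, Saa3 had 11 to 28 reads and Snhg9 had 23 to 35.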

Other observations

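Some genes outside the main groups had wide differences in total RNA, and those named here without a list were chosen after their values were seen. Ccl9, a chemokine, had 3.35 and 3.43 RPKM in the low set and 8.76 and 23.6 in the high set, with 5.08 RPKM at X0 and 5.36, 8.33, 19.1 and 47.6 polysome RPKM (log2 difference in total RNA 1.94, voom adjusted p = 0.0468). Siglecg, a sialic acid-binding receptor of immune cells, had 6.13 and 10.7 RPKM in the high set against 3.16 and 3.28 in the low set, while the immune marker Ptprc was at 0 in all 4 libraries. Slc38a4, an amino acid transporter, had 15.8, 14.8, 22.7 and 34.2 RPKM from X1 to X4. Besides Gars, the tRNA synthetases Aars, Iars and Mars had log2 differences of 0.52, 0.61 and 0.49, and Hspa9, the mitochondrial HSP70, had 0.74. On the lower side, Smoc1, a secreted matrix protein, had 36.4 and 31.3 RPKM in the low set and 24.5 and 18.2 in the high set, Ackr3, a chemokine receptor, had 39.9, 32.8, 26.1 and 22.2 RPKM, and Tmprss6, a serine protease, had 1.76 and 1.44 RPKM in the high set against 3.28 and 3.22 in the low set. All of these except Ptprc had sets that did not overlap, and voom called each of them. They were chosen by their values or small p in these same libraries, so neither is further support.

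Other lists are given by their counts, against shares over all genes of 29.1% higher and 17.8% lower. Higher and lower members were 9 and 2 of 27 for cholesterol synthesis, 13 and 2 of 28 for fatty acid and lipid droplet genes, 10 and 5 of 30 for NRF2 and glutathione, and 14 and 15 of 75 for the respiratory chain. They were 6 and 1 of 20 for p53 targets, 7 and 6 of 17 for the interferon response, 7 and 5 of 22 for chemokines and NF-kB targets, 3 and 5 of 12 for noncoding RNAs and 1 and 0 of 6 for imprinted growth genes. Saa3, an acute phase protein, had 3.03, 3.28, 1.04 and 1.71 RPKM from X1 to X4, from only 28, 28, 11 and 20 reads. Ifitm1, an interferon-induced membrane protein, had 2.68 and 2.84 RPKM in the low set and 1.74 and 1.25 in the high set. Ccng1, a cyclin induced by p53, had 7.08, 5.97, 9.13 and 9.76 RPKM and 21.7 RPKM at X0, while Btg2, also a p53 target, had 16.8 and 14.8 RPKM in the high set against 23.4 and 18.1 in the low set.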
